A study of Mus musculus with 8 samples.

Results

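The genes described are 10 members of the Notch pathway in the developing mouse cortex, namely the receptors Notch1, Notch2 and Notch3, the ligands Dll1, Dll3 and Jag1, and the HES and HEY factors Hes1, Hes5, Hes6 and Hey1. They were chosen by name as receptors, ligands and HES targets, and all 10 were among the 22808 genes matched between the E11.5 and E12.5 count tables. RNA was sequenced from cortices of Mboat7+/- and Mboat7-/- embryos at E11.5 and at E12.5, with 2 cortices per genotype at each stage and 8 in all. Both genotypes carry a germline Mboat7 knockout allele in C57BL/6N mice, so the Mboat7+/- controls lack 1 copy in every cell and no wild-type embryo is among these samples. Mboat7 encodes the acyltransferase that puts arachidonic acid into phosphatidylinositol.

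Notch signaling works between touching cells. A ligand of the Delta or Jagged family on one cell binds a receptor on its neighbor, the receptor is cut by ADAM proteases and then by gamma-secretase, and the freed intracellular part joins Rbpj in the nucleus to switch on Hes and Hey genes. In the embryonic cortex, Hes1 and Hes5 keep radial glial cells (RGCs) undifferentiated by repressing proneural genes, while cells that start to differentiate make Dll1 and Dll3 under proneural factors and signal back to their neighbors. Dll3 differs from the other ligands in that it sits largely inside the cell and does not activate receptors on neighboring cells. Hes6 opposes Hes1 and is made by differentiating cells.

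Before the results, the label of the knockout was checked on its own gene. At E11.5, Mboat7 had 700 and 876 counts in Mboat7+/- cortices against 1103 and 860 in the cortices labelled Mboat7-/-, and at E12.5 it had 739 and 782 against 730 and 729. The count of the gene is therefore not lower in the knockout libraries at E11.5, and only slightly so at E12.5. The deleted part of the gene is not given in the sources used here, so counts over the whole gene check nothing about its loss, and the direction of every difference below rests on the labels. The total count per cortex ran from 20799311 to 28189771. The 10 genes had between 645 and 8020 counts in a cortex, so counting error alone was between 1.12% and 3.94% of a value. The dorsal telencephalon marker Emx1 was present in every cortex. The libraries of the 2 stages were sequenced on different instruments at different companies and counted with different annotations, so stage and laboratory cannot be told apart, and genotypes were compared within a stage. Xist had 17875 counts in Mboat7+/- replicate 1 at E11.5 and at most 2 in the other cortices. The authors collected embryos of either sex, and no fit had a term for sex. The E11.5 genotype differences in fits of all cortices are therefore not separated from it.

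The sequence around a RefSeq start site is shown for 2 of these genes. Hes5 was taken as the classic direct target of the Rbpj complex, and Dll3 because it had the smallest p of the 10 genes over both stages. RefSeq promoter windows (GRCm38.p6, from 250 bases before to 50 bases after a start site, read 5′ to 3′ on the gene's strand) matched 8 of the 10 genes. None was found for Hes1 and Hey1. The Dll3 window lies within the bounds that GENCODE M21 gives the gene (chr7:28293553-28302238, minus strand). Its start site is therefore downstream of the GENCODE 5′ end. Capitals mark the core bound by Rbpj, TGGGAA, or its reverse complement TTCCCA, and the E-box CANNTG, the kind of site bound by proneural factors. The pattern CANNTG matches on both strands at once, though the bases at N can differ between the strands. No marked site overlapped another.
Hes5, chr4:154960673-154960972, plus strand: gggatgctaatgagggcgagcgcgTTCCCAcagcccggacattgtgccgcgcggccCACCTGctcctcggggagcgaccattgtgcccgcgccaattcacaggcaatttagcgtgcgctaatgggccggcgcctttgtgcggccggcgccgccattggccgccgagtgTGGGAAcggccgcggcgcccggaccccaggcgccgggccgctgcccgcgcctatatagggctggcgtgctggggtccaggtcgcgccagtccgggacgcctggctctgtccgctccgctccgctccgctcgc
Dll3, chr7:28301736-28302035, minus strand: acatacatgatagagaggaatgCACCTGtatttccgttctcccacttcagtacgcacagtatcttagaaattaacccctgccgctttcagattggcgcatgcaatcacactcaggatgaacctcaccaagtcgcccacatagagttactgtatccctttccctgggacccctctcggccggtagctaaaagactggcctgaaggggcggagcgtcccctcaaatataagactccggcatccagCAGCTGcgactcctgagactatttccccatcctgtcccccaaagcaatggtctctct
Counted from the start site, the Hes5 window held the Rbpj core at positions -226 and -82 and 1 E-box at -194. Among all 32851 windows of the same length, 25.6% held the core at least once and 3.79% at least 2 times. An E-box was held at least once by 72.3% and at least 2 times by 39.6%. The Dll3 window had 2 E-boxes, at -228 and -7, and none of the windows of Notch1, Notch2, Notch3, Dll1, Dll3, Jag1 or Hes6 held TGGGAA. These matches describe letters in these windows, and their use by any factor was not measured here.

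Levels of different genes were compared per kilobase of exon (CPM per kb, RPKM). At E11.5, Hes5 and Hes6 stood at the top, with means of 114 ± 14.5 and 99.9 ± 14.3 RPKM (SD, n = 4 cortices of both genotypes). Hes1 (38.3 ± 3.66), Dll1 (38.2 ± 2.58), Notch3 (31.0 ± 3.65), Hey1 (26.2 ± 2.28), Notch1 (24.9 ± 1.45) and Dll3 (23.6 ± 3.51) followed, each overlapping the next in its range over cortices. Jag1 (7.88 ± 1.02) and Notch2 (7.27 ± 0.879) lay below the other genes without overlap and overlapped each other. At E12.5, Hes6 (79.9 ± 3.33 RPKM) and Hes5 (78.5 ± 13.6) were again highest and overlapped, and Jag1 (5.73 ± 0.403) was lowest. Notch3 had a mean of 15.4 ± 1.54 RPKM at E12.5. The E12.5 mean over the E11.5 mean of TMM-scaled CPM was 0.498 for Notch3, 0.616 for Dll3, 0.689 for Hes5, 1.025 for Notch1 and 1.296 for Hey1, and these ratios were not tested because stage and laboratory coincide.

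**Figure D1:**
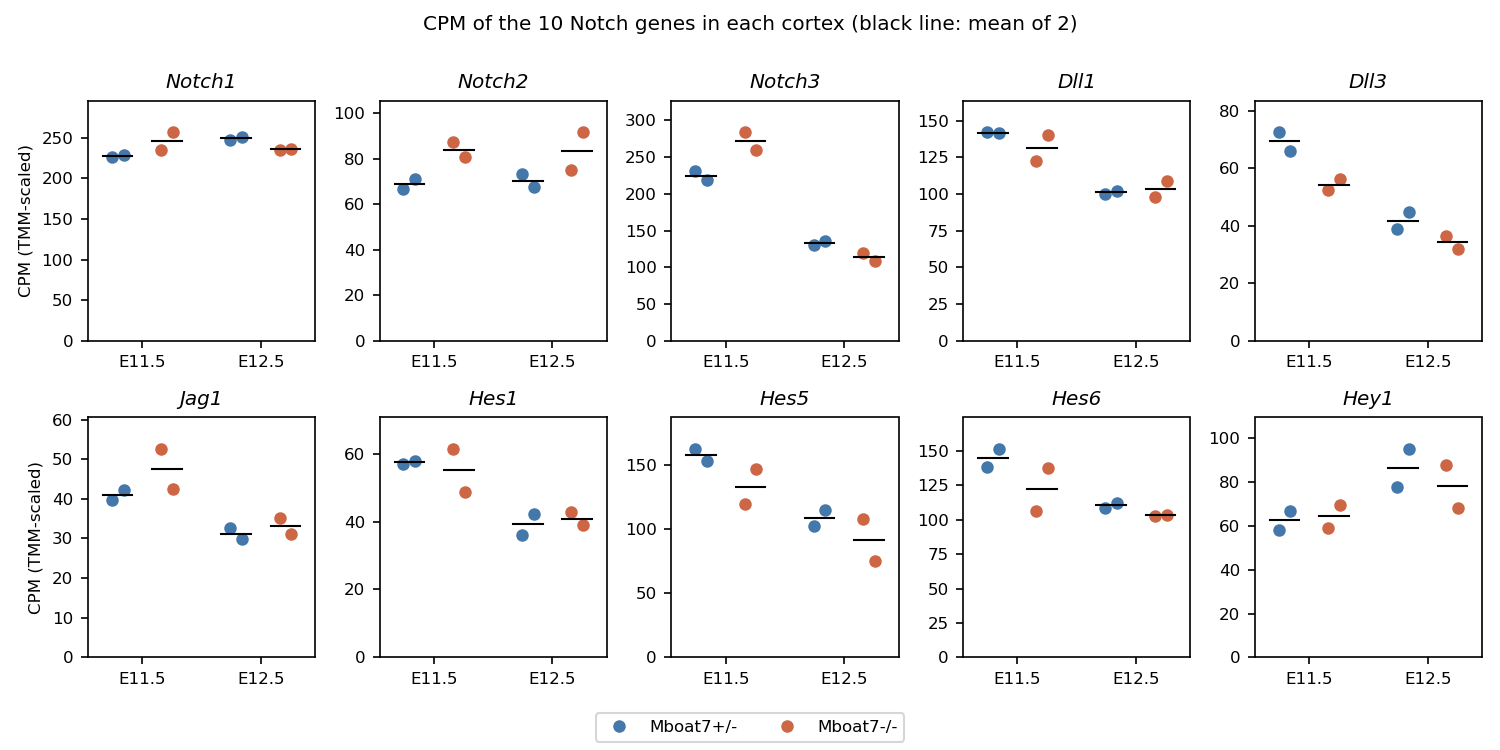
TMM-scaled CPM of each of the 10 genes (vertical axes start at 0) in every cortex, by stage and genotype, with the mean of the 2 cortices of a group as a black line. Dll3 was lower in both cortices labelled Mboat7-/- than in both Mboat7+/- cortices at each stage, while Notch3 was higher at E11.5 and lower at E12.5.

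Among the 10 genes, none passed a false discovery rate (FDR) of 0.05 between genotypes at either stage, by edgeR's quasi-likelihood test. The median log2 fold change of Mboat7-/- over Mboat7+/- stood at -0.010 in the E11.5 fit and at -0.090 in the E12.5 fit (all genes tested, -0.005 and 0.005). All values named below therefore describe differences that do not pass the test, unless a fit is named. Of all genes tested, 0.0% passed at E11.5 and 0.0184% at E12.5, and the unadjusted p was under 0.05 for 14.1% at E11.5 and 4.23% at E12.5. Of the 10 Notch genes, 4 had such a p at E11.5 and 2 at E12.5. With 2 cortices per genotype, both values of 1 genotype lay outside those of the other for 46.4% of genes at E11.5 and 32.0% at E12.5, and for 8 and 5 of the 10. At both stages in 1 direction this held for 9.63% of genes and 3 of the 10 (Notch2, Dll3 and Hes6), and in opposite directions for 5.15% of genes and 2 of the 10 (Notch1 and Notch3).

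The receptors at E11.5 were all higher in the cortices labelled Mboat7-/-. Notch2 had 66.7 and 70.9 CPM in Mboat7+/- cortices against 87.0 and 80.7 in the Mboat7-/- cortices, so the groups did not overlap. The log2 fold change was 0.28 ± 0.08 (SE), a 1.22-fold difference, with an unadjusted p of 0.00774 and an adjusted p of 0.212 by edgeR. Notch3, which is prominent in vascular mural cells as well as in neural progenitors, had 231 and 219 CPM against 284 and 260, with a log2 fold change of 0.28 ± 0.07 and an edgeR adjusted p of 0.186. When the replicate number, which the batch tag of the labels repeats, entered the fit as a block, 3.38% of all genes passed the test at E11.5, Notch3 among them with an adjusted p of 0.0269. Notch1, the main receptor of neural progenitors, had 226 and 228 CPM against 235 and 256, and its log2 fold change of 0.11 ± 0.07 had an edgeR adjusted p of 0.489. Once a trend with gene length and GC content was removed, the log2 fold changes were 0.14 for Notch2, 0.16 for Notch3 and -0.02 for Notch1.

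At E12.5 the receptors no longer lay on 1 side. Notch2 had 73.2 and 67.4 CPM in Mboat7+/- cortices against 74.8 and 91.5 in the Mboat7-/- cortices, a log2 fold change of 0.24 ± 0.11 (unadjusted p of 0.0531, edgeR adjusted p of 0.954). Notch3 had 131 and 136 CPM against 120 and 108, a log2 fold change of -0.22 ± 0.09 (edgeR adjusted p of 0.954). Notch1 had 247 and 251 CPM against 235 and 236, a log2 fold change of -0.08 ± 0.09. Over both stages, with stage as a term, Notch2 was 1.2-fold higher (log2 0.27 ± 0.07, unadjusted p of 0.00267, edgeR adjusted p of 0.301), or at a log2 fold change of 0.15 with the length and GC trend removed, and the percentages of all genes with an FDR under 0.05 and an unadjusted p under 0.05 in that fit were 0.0% and 12.4%. The opposite signs of Notch3 gave a log2 interaction of -0.50 ± 0.12 between stage and genotype, with an unadjusted p of 0.00113 and an edgeR adjusted p of 0.551. No gene passed the FDR in the interaction fit (0.0%), and 5.42% of genes had an unadjusted p under 0.05, 1 of them among the 10 Notch genes.

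Of the ligands, Dll3 was the one that was lower in the cortices labelled Mboat7-/- at both stages. At E11.5 it had 72.6 and 66.2 CPM in Mboat7+/- cortices against 52.5 and 56.2 in the Mboat7-/- cortices, a log2 fold change of -0.35 ± 0.09 (0.784-fold, edgeR adjusted p of 0.187). The blocked fit gave an adjusted p of 0.0456, and in it Dll3 and Notch3 were the 2 Notch genes that passed. Neither passed with the length and GC trend removed as well as the block (adjusted p of 0.146 for Dll3 and 0.334 for Notch3 by edgeR). At E12.5 it had 38.9 and 44.8 CPM against 36.6 and 32.1, a log2 fold change of -0.28 ± 0.12 (edgeR adjusted p of 0.954). Over both stages Dll3 was 0.802-fold the Mboat7+/- level, with an unadjusted p of 0.000751 and an edgeR adjusted p of 0.274. The gene lies on the same chromosome as Mboat7 (GENCODE M21, GRCm38: Dll3 at chr7:28293553-28302238, Mboat7 at chr7:3677789-3693523, both on the minus strand). Removal of the length and GC trend left its log2 fold change at -0.30 at E11.5 and -0.28 at E12.5.

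Dll1, the main activating ligand in cortical progenitors, had the smallest differences of the 3 ligands. Its CPM was 142 and 141 in Mboat7+/- cortices against 123 and 140 in Mboat7-/- cortices at E11.5, and 100 and 102 against 98.2 and 109 at E12.5. The log2 fold changes were -0.11 ± 0.08 and 0.03 ± 0.09. Jag1, a ligand found in progenitors and in vessel walls, had 39.6 and 42.2 CPM against 52.6 and 42.5 at E11.5, and 32.5 and 29.9 against 35.1 and 31.1 at E12.5. Its E11.5 mean in the Mboat7-/- cortices rested on replicate 1, the other cortex lying within 1 CPM of the highest Mboat7+/- value. The log2 fold changes of Jag1 were 0.22 ± 0.12 and 0.09 ± 0.11, with edgeR adjusted p of 0.451 and 0.958.

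Since a ratio of 2 genes within a cortex does not depend on library scaling, 5 pairs were also compared as ratios of counts. The pairs were chosen after the values were seen. Dll3 over Dll1 was 0.511 and 0.468 in Mboat7+/- cortices against 0.427 and 0.400 in Mboat7-/- cortices at E11.5, and 0.389 and 0.439 against 0.373 and 0.296 at E12.5. Both Mboat7-/- values were below both Mboat7+/- values at each stage. Notch2 over Notch1 was 0.295 and 0.311 against 0.370 and 0.315 at E11.5, and 0.296 and 0.268 against 0.319 and 0.388 at E12.5, with both Mboat7-/- values above. Since the pairs were chosen with these values known, the ratios are a description and were not tested. Hes5 over Hes1 had an E11.5 range of 1.94 to 3.0 within the Mboat7-/- cortices alone. At E12.5 it was 2.838 and 2.711 in Mboat7+/- cortices against 2.525 and 1.925 in Mboat7-/- cortices, both below. Notch3 over Notch1 overlapped at E11.5, at 1.021 and 0.9575 against 1.207 and 1.015. At E12.5 it was 0.5288 and 0.5421 against 0.5119 and 0.4584, both below. Hes6 over Hes5 overlapped at both stages.

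**Figure D2:**
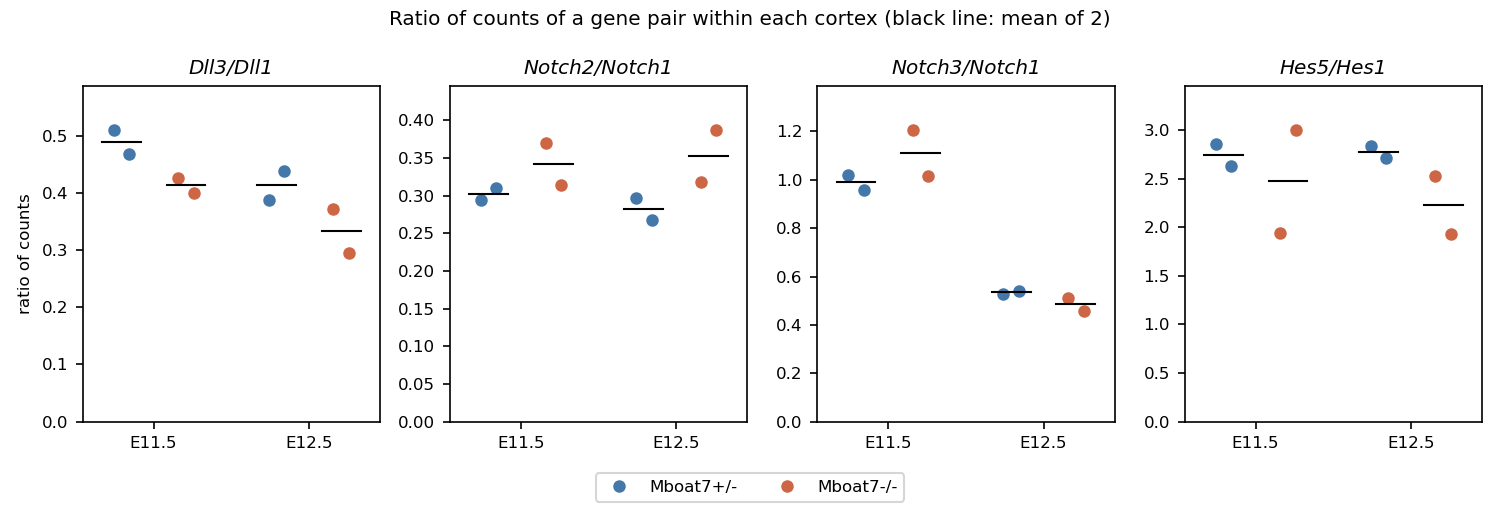
Ratio of counts of 4 gene pairs within each cortex (vertical axes start at 0), by stage and genotype, with the mean of the 2 cortices as a black line. The Dll3 over Dll1 ratio lies lower and the Notch2 over Notch1 ratio higher in both Mboat7-/- cortices at each stage, whereas the Mboat7-/- values of Hes5 over Hes1 spread widely.

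Of the HES and HEY factors, Hes5 and Hes6 had lower means in the cortices labelled Mboat7-/- at both stages, while Hes1 and Hey1 differed in sign between the stages. Hes5, the most abundant of them per length at E11.5, had 162 and 153 CPM in Mboat7+/- cortices against 119 and 146 in Mboat7-/- cortices at E11.5. The log2 fold change was -0.25 ± 0.10, with an unadjusted p of 0.0323 and an edgeR adjusted p of 0.307, and it was -0.11 without Mboat7-/- replicate 1 and -0.40 without Mboat7-/- replicate 2. At E12.5 Hes5 had 102 and 115 CPM against 108 and 75.2, and the groups overlapped. The log2 fold change was -0.25 ± 0.15 (edgeR adjusted p of 0.954), and it was -0.01 without Mboat7-/- replicate 2 and -0.53 without Mboat7-/- replicate 1. The E12.5 difference of Hes5 therefore rested on 1 cortex. Once the length and GC trend was removed, Hes5 was at -0.12 and Hes6, described next, at -0.13 on the log2 scale at E11.5. Over both stages Hes5 was 0.844-fold (unadjusted p of 0.0257, edgeR adjusted p of 0.352).

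Hes6 had 138 and 151 CPM against 106 and 138 at E11.5, where the highest Mboat7-/- value lay just under the lowest Mboat7+/- value, and 108.6 and 112 against 102.5 and 103.4 at E12.5. The log2 fold changes were -0.25 ± 0.11 and -0.10 ± 0.09, with edgeR adjusted p of 0.375 and 0.954. Hes1, whose product oscillates in progenitors, had 56.9 and 58.0 CPM against 61.4 and 48.7 at E11.5 and 36.0 and 42.3 against 42.7 and 39.1 at E12.5, with overlap at both stages. Hey1 had 58.4 and 66.7 CPM against 59.3 and 69.6 at E11.5 and 77.7 and 95.2 against 88.1 and 68.0 at E12.5. Neither Hes1 nor Hey1 had an unadjusted p under 0.05 in any of the 4 fits, and their log2 fold changes per stage lay between -0.15 and 0.06.

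The number of these genes that passed changed when 1 cortex was left out. Such a fit leaves 1 genotype with a single cortex, which is assumed to vary like the 2 cortices of the other genotype, so its calls say less than those of the full fit. Leaving out E11.5 Mboat7+/- replicate 1, the cortex with high Xist, gave E11.5 log2 fold changes of 0.11 (Notch1), 0.24 (Notch2) and 0.32 (Notch3). The ligands were then at -0.10 (Dll1), -0.28 (Dll3) and 0.18 (Jag1). The HES and HEY factors were at -0.07 (Hes1), -0.20 (Hes5), -0.31 (Hes6) and -0.05 (Hey1). The part of sex was not tested. Without E11.5 Mboat7-/- replicate 2, 5 of the 10 had an FDR under 0.05 by edgeR (Notch2, Notch3, Dll3, Hes5 and Hes6), and 1184 genes passed in all. Without E12.5 Mboat7-/- replicate 1, where Mboat7-/- was the single cortex with 75.2 CPM of Hes5, Hes5 had an adjusted p of 0.00793 by edgeR, and 323 genes passed in all.

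**Figure D3:**
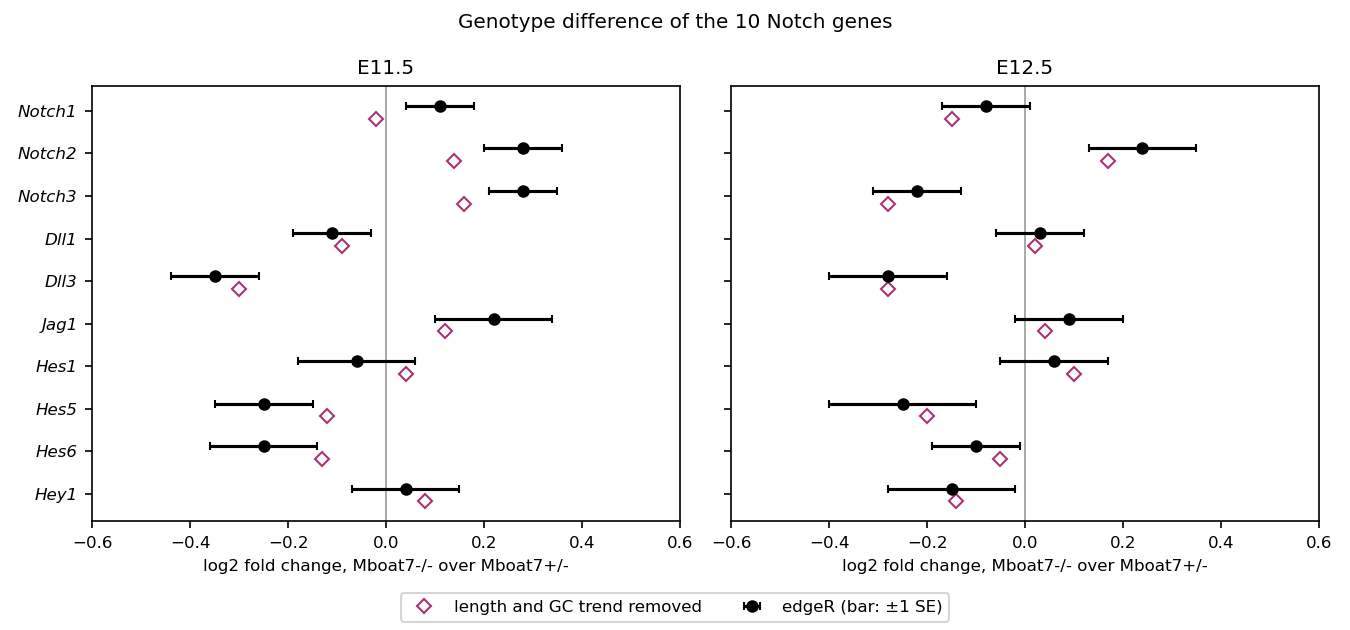
Log2 fold change of Mboat7-/- over Mboat7+/- at E11.5 and E12.5 for the 10 genes from edgeR, with bars of 1 SE (filled circles), and after a trend with gene length and GC content was removed (diamonds). Dll3 stays below 0 at both stages, and removal of the trend takes the E11.5 value of Notch2 from 0.28 to 0.14 and moves Notch1 to -0.02.

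Bulk values cannot tell fewer cells of a type from less RNA per cell, so marker genes were read beside these results. At E11.5 the dorsal telencephalon list summed to 1066 and 1158 CPM in Mboat7+/- cortices against 825 and 1024 in the Mboat7-/- cortices. Of its 5 genes, 3 had an unadjusted p under 0.05, all lower, beside 14.1% of all genes tested at that stage. The mesenchyme list summed to 1613 and 1557 CPM against 1836 and 1996, with 5 of 8 genes higher at that p, and the endothelium list to 305 and 289 against 332 and 323. The neuron list summed to 1928 and 2199 CPM against 1299 and 2037, with overlap, and all 8 of its genes had a log2 fold change below 0. At E12.5 the neuron list summed to 3532 and 3327 CPM against 3464 and 3441, and 7 of its genes lay above 0 and 1 below. The mural cell list summed to 116 and 103 CPM against 132 and 113 at E11.5. At E12.5 it summed to 96.8 and 83.2 CPM against 98.6 and 134, and the blood list to 5225 and 7551 against 5316 and 3778. The blood list at E11.5 summed to 5817 and 4443 CPM against 2842 and 3195, without overlap. The dorsal list at E12.5 was at 1213 and 1226 CPM against 1300 and 1292, higher in the Mboat7-/- cortices. The summed RGC list overlapped between genotypes at both stages. The sums were 4356 and 4352 against 4070 and 4450 CPM at E11.5, and 2997 and 3301 against 3067 and 2728 CPM at E12.5. Of its 8 genes, 2 were lower at an unadjusted p under 0.05 at E12.5, beside 4.23% of all genes. These were Nes and Hmga2, with log2 fold changes of -0.32 and -0.52 (edgeR adjusted p of 0.954 for each). At E12.5, 6 of the 8 lay below 0 and 2 above, and at E11.5, 3 lay below and 5 above. The list of intermediate progenitor cells (IPCs) overlapped in its sum at both stages. Of its 6 genes, 3 were lower and 1 was higher at an unadjusted p under 0.05 at E11.5, beside 14.1% of all genes. Eomes, Gadd45g and Rnd2 were lower, with log2 fold changes of -0.34, -0.36 and -0.38, and Mfap4 was higher, with 0.35. At E12.5, Gadd45g alone had such a p, and it was higher (0.35), beside 4.23% of all genes. Mfap4 was at -0.19 there, and 4 of the 6 lay above 0 and 2 below. The ventral telencephalon list was lower at E11.5 (509 and 480 CPM against 390.2 and 475) and the microglia list higher at E12.5 (37.9 and 31.7 CPM against 39.7 and 44.9). The part of these lists in the Notch gene differences was not tested.

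Beyond the 10 genes, 59 further genes of the pathway were read in 7 lists. None passed an FDR of 0.05 by edgeR at either stage. At E11.5, 57 were tested, of which 9 had an unadjusted p under 0.05 with a higher level and 4 with a lower level, beside 14.1% of all genes. At E12.5, 56 were tested, with 1 higher and 2 lower, beside 4.23%. The lists' median log2 fold changes lay between -0.06 and 0.12, with the exception of the proneural factors, whose median was -0.26 at the earlier stage and 0.09 at the later, and of the other receptors and ligands at E12.5, with 0.21.

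Among genes that act on the receptor, the sheddases Adam10 and Adam17 had log2 fold changes of 0.19 and 0.22 at E11.5 (edgeR adjusted p of 0.307 and 0.306) and of 0.18 and 0.10 at E12.5. Rbpj, the DNA-binding partner of the receptor, was at 0.09 and -0.03. The coactivator Ep300 (0.22) and the corepressors Ncor1 (0.25), Spen (0.28) and Tle2 (0.38) had an unadjusted p under 0.05 at E11.5, and 12 of the 14 genes of the nuclear list were above 0 there. Of these, Ncor1 passed with the replicate block at an adjusted p of 0.0409 by edgeR, but not once the length and GC trend was removed as well (0.672), which took its log2 fold change without the block from 0.25 to 0.08. With the trend removed and no block, Ep300 was at 0.07, Spen at 0.16 and Tle2 at 0.42 at E11.5. Of the nuclear list, Rbpj, Maml2, Maml3 and Tle1 then lay below 0, and Hdac1 above. Adam10 and Adam17 were then at 0.10 and 0.15. At E12.5, before removal of the trend, 6 of the 14 nuclear genes were above 0. Of the fringe enzymes, which set the receptor's choice of ligand, Mfng was at -0.28 and -0.18 and Lfng at -0.06 and 0.03.

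Mib1, the ubiquitin ligase that lets ligands be taken up, had 18.5 and 17.4 CPM in Mboat7+/- cortices against 30.3 and 22.4 in Mboat7-/- cortices at E11.5. Its log2 fold change of 0.56 ± 0.17 had an adjusted p of 0.216 by edgeR and of 0.0486 with the replicate block, but of 0.342 with the block and the length and GC trend removed. Without the block, removal of the trend took the log2 fold change to 0.36. At E12.5 it was at 146 and 122 CPM against 145 and 137, a log2 fold change of 0.07. The ubiquitin ligase Itch was at 0.23 and 0.08, Numbl, which opposes Notch, at -0.37 and -0.04, and Numb at 0.02 and 0.03, in the order E11.5 and E12.5.

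Nrarp, a Notch target that feeds back on the receptor's nuclear complex, was lower on average at both stages. It had 215 and 189 CPM against 164 and 183 at E11.5 and 154 and 189 against 155 and 119 at E12.5. The log2 fold changes were -0.22 ± 0.08 and -0.32 ± 0.13, with unadjusted p of 0.0298 and 0.0358 and edgeR adjusted p of 0.302 and 0.954, and at E12.5 the groups overlapped. The non-canonical ligand Dlk1 had 99.4 and 111 CPM against 75.2 and 61.4 at E12.5, a log2 fold change of -0.62 ± 0.11 (unadjusted p of 0.000192, edgeR adjusted p of 0.285, and 0.00661 with the replicate block). At E11.5 its values overlapped, at 347 and 261 against 461 and 245 CPM.

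Proneural factors, which Hes proteins repress and which drive Dll1 and Dll3, lay below 0 at E11.5 in all 7 genes and above 0 in 5 of 7 at E12.5. Neurog2 had 148 and 161 CPM against 105 and 151 at E11.5 and 184 and 178 against 200 and 214 at E12.5, and its interaction with stage was 0.47 on the log2 scale (unadjusted p of 0.0255, edgeR adjusted p of 0.885). Neurog1 was at -0.34 ± 0.11 at E11.5 (edgeR adjusted p of 0.237) and 0.09 at E12.5. Neurod1 was at -0.24 and then at 0.28 ± 0.11 (edgeR adjusted p of 0.954). In the 2 E11.5 Mboat7-/- cortices the summed neuron markers were lower in replicate 1, as was Neurog2, and this was not tested further.

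**Figure D4:**
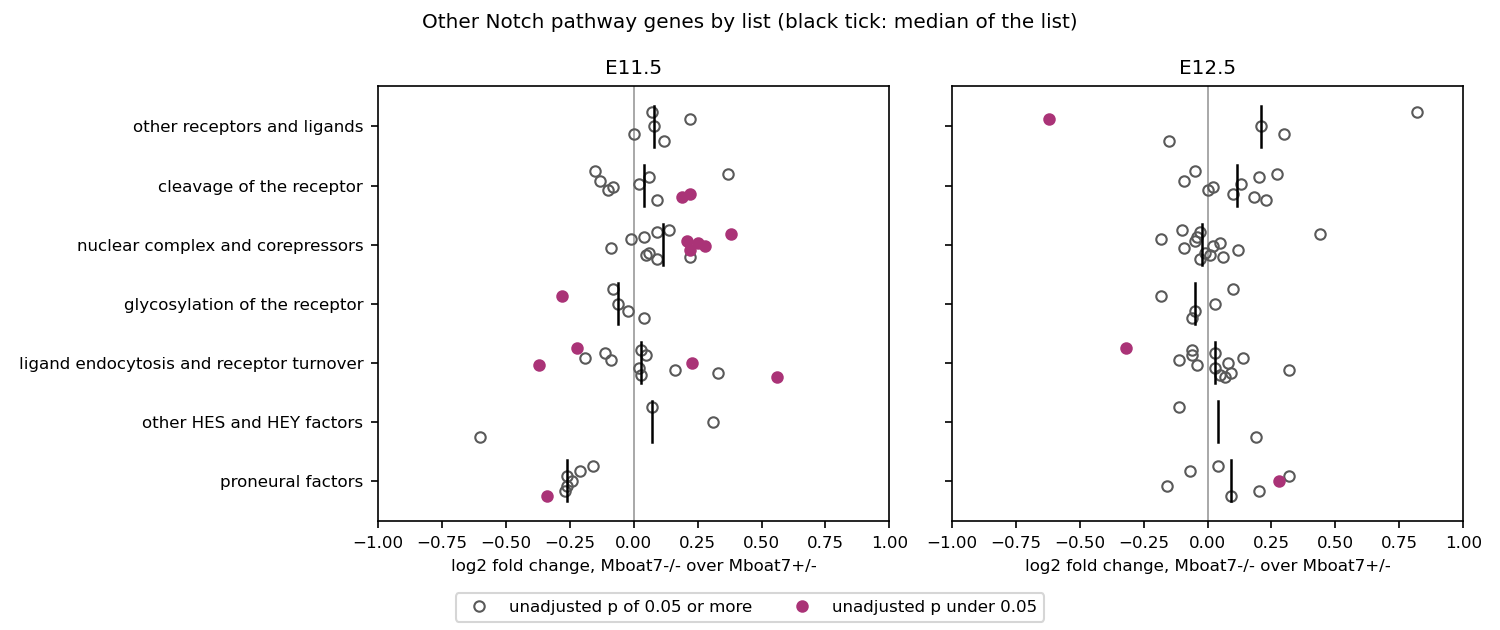
Log2 fold change of Mboat7-/- over Mboat7+/- from edgeR for each gene of the 7 other pathway lists at E11.5 and E12.5, filled where the unadjusted p was under 0.05, with the median of each list as a black tick. The proneural factors lie below 0 in all 7 genes at E11.5 but not at E12.5, and no gene shown passed an FDR of 0.05.

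The genes whose pattern over the 8 cortices was most like that of Hes5 and Dll1 were found by Pearson's r of log2 CPM, with each stage's mean removed, among 10604 genes. For Hes5 these were Prkra (r of 0.992), Asf1b (0.990), Kcnk5 (0.987), Akirin1 (0.979) and Hras (0.978). For Dll1 they were Nkd1 (0.991), Hcn3 (0.985), Lrrc75b (0.984), Slu7 (0.982) and 4931428F04Rik (0.98). The 8 cortices come from 2 stage tables and vary in depth, and with so many genes compared over 8 points, r near 1 is a description only. Among the 10 genes themselves, Notch2 ran against Dll3 (r of -0.97) and against Hes5 (-0.94), and Dll3 ran with Hes5 (0.86), which again describes the same 8 cortices.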

How the data were processed

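Cortices of Mboat7+/- and Mboat7-/- embryos were dissected at E11.5 and E12.5, and poly(A) RNA was sequenced as directional libraries. The authors deposited raw read counts per gene, 1 table per stage and 1 column per embryo, without normalization; the submitters' processing notes name HISAT2 and Subread and the builds mm10 and GRCm39, with no roles or versions. At E11.5 there are 23420 genes named by symbol, and at E12.5 78298 named by Ensembl identifier, matched to symbols through a gene name table and RefSeq synonyms (98.9% and 81.5% of genes with a count). Exon lengths and GC came from GENCODE M21. The members and all lists were chosen with earlier results of these data known. Counts of 1 stage at a time went into edgeR 4.0.16 (R 4.3.3) with TMM scaling and filterByExpr (minimum count 10); the quasi-likelihood test was adjusted by Benjamini-Hochberg and read at an FDR of 0.05. A fit over both stages had stage as a term, and another tested the interaction. CPM used TMM-scaled library sizes. The named genes were the 10 members, every gene of the pathway lists with an unadjusted p under 0.05, and Rbpj, Mib1, Numb, Lfng and Neurog2; some genes that the rule names are not reported here; for likeness, 5 genes with a mean of at least 5 CPM were taken.

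The labels tag each embryo with a batch equal to its replicate number, and the block rests on that tag alone, since no source used here names a shared litter or day; the correlation of same-numbered deviations was 0.0548 for E11.5 and -0.121 for E12.5. The fit without the block was kept as main, and its blocked counterpart was an alternative. Other alternatives were RLE and upper-quartile normalization, no filter, a filter of at least 10 counts in every cortex, DESeq2 1.42.0, the earlier quasi-likelihood test, the exact test, a length and GC trend removed and leaving out each cortex. Replicate cortices differed by more than sampling noise (chi-square per degree of freedom from 8.35 to 14.3), so each was counted as a sample. With 2 cortices per genotype and no label naming litters, p-values measure the spread between these embryos. Counting error is the only error the depth gives. Figures were drawn with matplotlib 3.10.9.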

Additional observations from a re-analysis of the deposited data

Results flagged for a closer look

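The genotype difference of Notch3 was opposite at the 2 stages, with both cortices of 1 genotype above those of the other at E11.5 and below at E12.5. The interaction of stage and genotype was -0.50 on the log2 scale, with an unadjusted p of 0.00113 and an adjusted p of 0.551 in edgeR's quasi-likelihood test, and it lay between -0.57 and -0.43 when each cortex was left out in turn. Notch1 showed opposite directions without overlap as well, with an interaction of -0.19 on the log2 scale, an unadjusted p of 0.0998 and an edgeR adjusted p of 0.888. With the length and GC trend removed, Notch1 was at -0.02 at E11.5 and -0.15 at E12.5, with an interaction of -0.13. The interaction of Notch3 was then -0.44, with an unadjusted p of 0.0134 by edgeR. Opposite directions without overlap held for 5.15% of all genes, and 5.42% had an unadjusted interaction p under 0.05 before the trend was removed. Stage and sequencing company cannot be told apart, and no explanation was tested.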

How the results depend on the processing

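No Notch gene passed an FDR of 0.05 in the per-stage, both-stage and interaction fits, and this held under each alternative other than those given here. At E11.5 the number was 2 with the replicate block, and it ranged from 0 to 5 when a cortex was left out; at E12.5 it ranged from 0 to 1. For all genes at E11.5, against 0, the number with an FDR under 0.05 was 2 with at least 10 counts in every cortex, 178 with DESeq2, 505 with the replicate block, 76 with the length and GC trend removed and the replicate block, 176 with the exact test, and 1 to 1184 without a cortex. At E12.5, against 3, it was 0 with no filter and with at least 10 counts, 10 with DESeq2, 32 with the replicate block, 55 with the trend removed and the block, 28 with the exact test, and 30 to 323 without a cortex; the crossed replicate block, added after the data were seen, gave 158 genes and 0 Notch genes. Over both stages, against 0, it was 3 with DESeq2 and 3 with the trend removed and the replicate block, and 0 to 13 without a cortex. The interaction gave 19 with DESeq2, 1 with the trend removed and the block, and 0 to 89 without a cortex.

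Of 620 refitted log2 fold changes of the Notch genes, 57 changed sign. With the length and GC trend removed, and then with the replicate block as well, these were Hes1 at E11.5 (0.04 and 0.03) and over both stages (0.07 and 0.06), Notch1 at E11.5 (-0.02 and -0.01) and over both stages (-0.08 and -0.08), Notch3 over both stages (-0.05 and -0.06), and the interactions of Notch2 (0.02 and 0.02) and Hes5 (-0.08 and -0.10). Hes1 over both stages was also 0.000 with RLE, 0.001 with at least 10 counts, 0.002 with DESeq2 and 0.001 with the earlier quasi-likelihood test, and the Hes5 interaction was -0.01 with RLE, no filter, DESeq2 and the replicate block. Without a cortex the ranges were -0.04 to 0.10 (Dll1, E12.5), -0.08 to 0.02 (Dll1, both stages), -0.03 to 0.17 (Dll3 interaction), -0.24 to 0.10 (Hes1, E11.5), -0.05 to 0.18 (Hes1, E12.5), -0.06 to 0.07 (Hes1, both stages), -0.03 to 0.28 (Hes1 interaction), -0.28 to 0.23 (Hes5 interaction), -0.04 to 0.35 (Hes6 interaction), -0.08 to 0.15 (Hey1, E11.5), -0.35 to 0.03 (Hey1, E12.5), -0.12 to 0.03 (Hey1, both stages), -0.01 to 0.17 (Jag1, E12.5), -0.28 to 0.02 (Jag1 interaction), -0.03 to 0.04 (Notch1, both stages), -0.20 to 0.10 (Notch2 interaction) and -0.03 to 0.12 (Notch3, both stages). The cause of these changes was not tested. The signs of Notch2, Notch3, Dll3, Hes5 and Hes6 at each stage did not change in any of these refits. Hes5 at E12.5 came as near to 0 as -0.01, without Mboat7-/- replicate 2.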

Other observations

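Mib1 stood at 17.9 ± 0.748 CPM in the Mboat7+/- cortices at E11.5 and at 134 ± 16.8 at E12.5 (SD, n = 2), a far larger step between the tables than any of the 10 Notch genes showed. The tables use different annotations, and what was counted for Mib1 in each was not tested. Blood genes were lower on average in the cortices labelled Mboat7-/- at both stages. By edgeR, 4 of 5 tested genes at E11.5 and 5 of 8 at E12.5 had an unadjusted p under 0.05, all lower. Over all genes tested, 14.1% had such a p at E11.5 and 4.23% at E12.5.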
